A study of Mus musculus with 7 samples.

Results

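The Hox gene clusters of the mouse comprise 39 protein-coding genes among the 21887 protein-coding genes of the RefSeq annotation used here (GRCm38). They were taken by symbol, as Hoxa, Hoxb, Hoxc or Hoxd followed by a number. That rule uses no measured value, though it was chosen with earlier results of these data known. The cluster spans, from the first to the last Hox gene of each, were read together with 50 kb of flanking sequence on each side. They held 31 of the 133337 regions of the genome that the deposited data list as enriched for 5-methylcytosine (5mC), of which 15 lay in the spans and 16 in the 8 flanks. The libraries came from hippocampal neurons of C57BL/6J mouse embryos taken at stage E18.5 and kept for 11 days in vitro, with the mitosis inhibitor AraC added at medium changes. MeDIP-seq, which sequences DNA fragments pulled down by an antibody to 5mC, was done on 3 libraries of untreated cultures and 3 libraries of cultures given 55 mM KCl for 4 h, which depolarises neurons. A pooled input library was not analysed here. Whether replicates were separate cultures is not in the labels, so p-values below measure library-to-library spread that may be only technical. MeDIP-seq does not measure expression, so the labelled cell type could not be checked against expressed markers.

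Hox genes encode homeodomain transcription factors that give cells their position along the head-to-tail axis of the embryo. They lie in clusters in the order in which they are used along that axis, and genes at the same place in different clusters are paralogs with the same number. Low numbers mark the anterior end, which is used in the hindbrain, and high numbers the posterior end. In the forebrain, from which the hippocampus forms, the clusters are known as a textbook case of repression by Polycomb proteins, and their dense CpG islands are known for carrying little DNA methylation in many tissues.

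Promoter windows of 4 Hox start sites show the range of CpG content behind the results that follow. Each runs from 250 bases before to 50 bases after a RefSeq start site (GRCm38.p6), is written 5′ to 3′ on the strand of the gene, and has its CpG sites in capitals. The windows of Hoxa7 (chr6:52218524-52218823, minus strand, 9 CpG sites) and Hoxa9 (chr6:52227321-52227620, minus strand, 4 CpG sites) lie on either side of the stretch with the highest enriched regions of the clusters. The window of Hoxd11 (chr2:74682073-74682372, plus strand, 25 CpG sites) was the only one of the 24 Hox start sites with a window here that had an enriched region within 1 kb, and that of Hoxa13 (chr6:52260831-52261130, minus strand, 45 CpG sites) was the richest in CpG.
Hoxa7: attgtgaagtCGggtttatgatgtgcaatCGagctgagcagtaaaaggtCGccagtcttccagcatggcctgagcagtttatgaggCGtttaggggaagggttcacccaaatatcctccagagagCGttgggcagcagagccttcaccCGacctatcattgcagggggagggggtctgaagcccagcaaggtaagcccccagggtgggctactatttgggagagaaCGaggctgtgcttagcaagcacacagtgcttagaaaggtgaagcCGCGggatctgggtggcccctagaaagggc
Hoxa9: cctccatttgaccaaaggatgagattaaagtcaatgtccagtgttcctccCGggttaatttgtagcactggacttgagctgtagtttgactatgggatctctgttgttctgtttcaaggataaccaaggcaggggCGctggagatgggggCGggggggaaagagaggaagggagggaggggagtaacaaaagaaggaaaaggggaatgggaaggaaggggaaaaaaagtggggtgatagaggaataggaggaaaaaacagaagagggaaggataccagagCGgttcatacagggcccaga
Hoxd11: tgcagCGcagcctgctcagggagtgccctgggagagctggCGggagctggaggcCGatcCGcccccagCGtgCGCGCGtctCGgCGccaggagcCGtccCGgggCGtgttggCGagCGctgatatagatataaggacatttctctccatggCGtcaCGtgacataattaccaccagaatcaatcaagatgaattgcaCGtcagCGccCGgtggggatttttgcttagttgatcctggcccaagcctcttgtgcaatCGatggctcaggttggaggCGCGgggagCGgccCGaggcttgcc
Hoxa13: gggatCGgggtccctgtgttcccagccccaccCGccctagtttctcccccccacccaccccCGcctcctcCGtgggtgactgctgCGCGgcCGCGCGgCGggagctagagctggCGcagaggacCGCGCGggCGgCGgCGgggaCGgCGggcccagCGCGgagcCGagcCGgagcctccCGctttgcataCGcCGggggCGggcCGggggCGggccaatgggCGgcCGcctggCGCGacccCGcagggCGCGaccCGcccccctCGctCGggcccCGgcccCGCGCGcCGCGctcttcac

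Enriched regions were sparse in the clusters and unevenly placed. The 4 spans together measured 492 kb and held 3.05 regions per 100 kb, the flanks held 4 per 100 kb, and the genome held 5.19 per 100 kb. The Hoxa cluster (chr6:52155367-52260880) had 5 regions, or 4.74 per 100 kb. The Hoxb cluster (chr11:96194316-96368254) had 6, or 3.45 per 100 kb. The Hoxc cluster (chr15:102921131-103036856) had 3, or 2.59 per 100 kb, and the Hoxd cluster (chr2:74668225-74765142) had 1, or 1.03 per 100 kb. Among the 31 regions, 3 were called in all 6 libraries, or 9.68%, against 20.5% of regions in the genome, and 10 were called in 1 library, or 32.3% against 29.3%. All 3 lay in the Hoxa cluster, and none of the 16 flank regions was called in all 6 libraries. Of the 15 regions in the spans they made up 20%, near the share in the genome. Region height is the pileup of reads at the summit as the authors' files give it, and the median of the mean heights was 13 in the clusters, 12 in the flanks and 13 in the genome.

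All 5 regions of the Hoxa cluster fell in 1 stretch of 4.42 kb (chr6:52219976-52224396), of which 64.2% was covered by regions. It began 1.4 kb from the start site of Hoxa7 (NCBI Gene 15404) and ran across the 3′ end of Hoxa9 (NCBI Gene 15405, chr6:52223097-52227370, minus strand). It stopped 2.97 kb short of the Hoxa9 start site, so neither promoter window printed above touched it. Hoxa7 and Hoxa9 are homeodomain factors of the trunk that are also known for their activity in leukaemia.

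The highest region of the stretch, and of all 31, was chr6:52222461-52223128, which spans the 3′ end of Hoxa9. Its heights were 53, 35 and 31 in the untreated libraries and 45, 20 and 17 in the KCl libraries, with means of 39.7 ± 11.7 and 27.3 ± 15.4 (SD, n = 3 each). The 2 groups overlapped, since KCl replicate 1 stood above untreated replicates 2 and 3. Of all regions in the genome, 5.14% had a mean height as great as its 33.5, and of the regions called in all 6 libraries 24.7% did. The adjoining region inside Hoxa9, chr6:52223130-52223922, read 29, 29 and 28 in the untreated and 40, 17 and 10 in the KCl libraries. Here the untreated libraries were nearly alike and the KCl libraries lay on both sides of them.

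The region between the genes, chr6:52220420-52221009, lies 1847 bp from Hoxa7. It had heights of 35, 39 and 25 in the untreated and 27, 24 and 12 in the KCl libraries. The groups overlapped here through untreated replicate 3 alone, which was below KCl replicate 1. The remaining regions of the stretch were weaker. The one nearest Hoxa7, chr6:52219976-52220381, had heights of 17, 10 and 14 in the untreated libraries and 23 and 12 in KCl replicates 1 and 2, and was not called in KCl replicate 3. The one deepest in Hoxa9, chr6:52224017-52224396, was called in untreated replicates 1 and 3 only, at heights of 10 and 9.

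Every library called 3 or more intervals in this stretch. They covered 48.8%, 47.7% and 47.7% of it in the untreated and 47.9%, 41.3% and 22.1% in the KCl libraries, so that KCl replicate 3, the library with the fewest intervals in the genome, covered the least. The highest summit of the stretch was 2.04, 1.34 and 1.29 times the library's own median over regions called in all 6 libraries in the untreated libraries, and 1.55, 1.09 and 1.06 times in the KCl libraries. In the genome, 1.11% of the regions called in all 6 libraries began a stretch of the same length holding at least 3 of them. This stretch was singled out after its values were seen, and the length and number in that share were taken from it. The share therefore does not measure how unusual the stretch is.

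**Figure D1:**
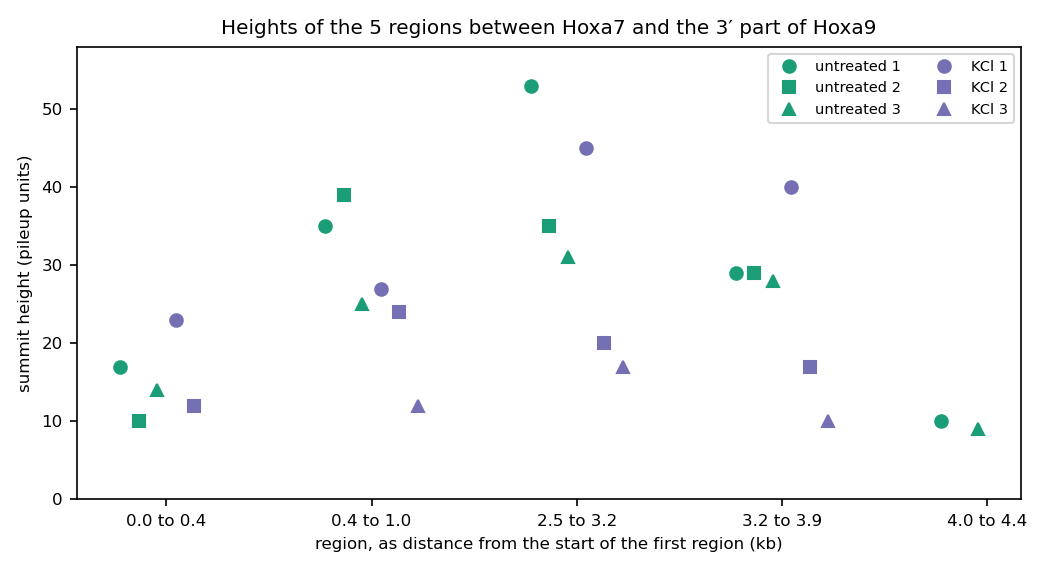
Summit height (pileup units) of the 5 regions between Hoxa7 and the 3′ part of Hoxa9 in each library, with regions ordered by distance in kb from the start of the first one and no point where a library had no call. Untreated (green) and KCl (purple) libraries overlap in each region that both groups called, and KCl replicate 3 has the lowest height of the 3 regions that it called.

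In the Hoxb cluster, the regions were scattered along the span and none was called in KCl replicate 3. Hoxb13 (NCBI Gene 15408), the most posterior and most isolated gene of the cluster, held the region called in most libraries, chr11:96195422-96195825. Its heights were 15, 18 and 10 in the untreated libraries and 20 and 12 in KCl replicates 1 and 2. The region chr11:96351076-96351611 lay in the antisense transcript gene Hoxb3os, 21 bp from Hoxb2 (NCBI Gene 103889), a hindbrain patterning gene. It had heights of 15 and 19 in untreated replicates 1 and 3 and 16 in KCl replicate 1. The other Hoxb genes with a region had it in 1 library each. Hoxb5 (NCBI Gene 15413), with the overlapping Hoxb5os, was called at a height of 13 in untreated replicate 1 (chr11:96305754-96306209), within 1 kb of an annotated end of Hoxb3. Hoxb3 (NCBI Gene 15410) was called at 13 in KCl replicate 1 (chr11:96311400-96311614).

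In the Hoxc cluster the highest region was in Hotair, a long non-coding RNA gene of the posterior end that is known for its proposed link to Polycomb proteins. That region, chr15:102947108-102947425, had heights of 19, 21 and 14 in the untreated libraries and 16 in KCl replicate 1, and no call in the other KCl libraries. Hoxc6 (NCBI Gene 15425) had heights of 10 and 13 in untreated replicates 1 and 3 (chr15:103001980-103002313). Hoxc4 (NCBI Gene 15423) had 12 in untreated replicate 1 and 14 in KCl replicate 1 (chr15:103018798-103019125). None of these 3 regions was called in KCl replicates 2 or 3.

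The Hoxd cluster held 1 region, in Hoxd11 (NCBI Gene 15431), a gene of posterior trunk and limb patterning. The region, chr2:74681259-74681687, had heights of 13, 13 and 16 in the untreated libraries and 13 and 10 in KCl replicates 1 and 2. It lies 636 bp upstream of the Hoxd11 start site whose CpG-rich window is printed above, and downstream of another annotated Hoxd11 start site. From there to the anterior end of the cluster, 83.5 kb with 6 whole Hox genes from Hoxd10 to Hoxd1 held no region in any library.

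Long stretches free of regions occurred in each cluster. The longest measured 64.6 kb in Hoxa and ended between Hoxa7 and Hoxa9. It measured 56.8 kb in Hoxb, from Hoxb9 to Hoxb6, and 54.6 kb in Hoxc, from Hoxc11 to Hoxc8. The median gap between regions in the genome was 8.14 kb, but long gaps make up much of the genome: gaps as long as the Hoxd one held 32.5% of the genome's gap length, and gaps as long as the Hoxc one held 46%. Stretches as long as the Hoxb and Hoxc gaps were thus common in these data. The Hoxa and Hoxd gaps were measured only up to the end of the span and ran on into the flank. Gaps of the genome were not cut in this way, so the share given for Hoxd is for its cut length. The full lengths of these gaps were not ranked.

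Counted by gene, 6 of the 39 Hox genes had a region within 1 kb of either annotated end, or 15.4%, against 26% of all protein-coding genes. A region in the gene body was found for 7 Hox genes, or 17.9%, against 63.1%. The 8 genes with either were Hoxa9, Hoxb13, Hoxb5, Hoxb3, Hoxb2, Hoxc6, Hoxc4 and Hoxd11, and 31 genes had neither. With regions called in all 6 libraries, Hoxa9 alone had one at an end or in its body, or 2.56% of the Hox genes, against 7.77% of all genes at an end and 33.9% in the body. The share at a gene end ranged from 2.56% to 15.4% of Hox genes in single libraries, below the share of all genes in each of the 6 libraries, and the same held for the gene body.

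Hox genes are short, with a median length of 3737 bp against 17169 bp for all protein-coding genes, and a short gene has less room for a region. Among the 3553 genes with lengths between the Hox quartiles, 2559 and 7436 bp, a region lay in the body of 39.2% and at an end of 31.5%. Of the 19 Hox genes in that range, 2 had a region in the body and 2 at an end. Genes with a region were spread along the axis, at 3 of 12 genes of paralog groups 1 to 4, 2 of 11 of groups 5 to 8 and 3 of 16 of groups 9 to 13. By cluster they numbered 1 of 11 in Hoxa, 4 of 10 in Hoxb, 2 of 9 in Hoxc and 1 of 9 in Hoxd. The Hoxa cluster thus had the highest regions but few genes with any.

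At the promoters, 24 windows of 300 bp could be read for 22 of the Hox genes, and 0 of them overlapped a region, against 4.85% of 32851 windows in the genome. Among these 24 start sites, the CpG-rich one of Hoxd11 had a region within 1 kb, or 4.17%, against 14% of all start sites read. The other 17 Hox genes had no window and were not counted here. Searched for the letters CG, which read alike on both strands and are found in 94.6% of all windows, the Hox windows held a median of 14.5 CpG sites, from 4 to 45, against a median of 7 in all windows. Their median GC content was 57.7% against 52.7%. The window of Hoxa13 was extreme, since 1.93% of all windows held as many CpG sites.

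The share of windows with a region varied with CpG content over the whole genome. It was 2.97% of windows with 0 to 4 CpG sites, 9.48% with 5 to 9 and 11% with 10 to 14, and then went down to 1.38% with 30 or more. Of the Hox windows, 11 of 24 held 20 or more CpG sites, against 26.5% of all windows, and a region overlapped 2.21% of all windows that rich. At such shares, 24 windows with no overlap are few to tell the Hox promoters from others of their CpG content, and that difference was not tested.

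**Figure D2:**
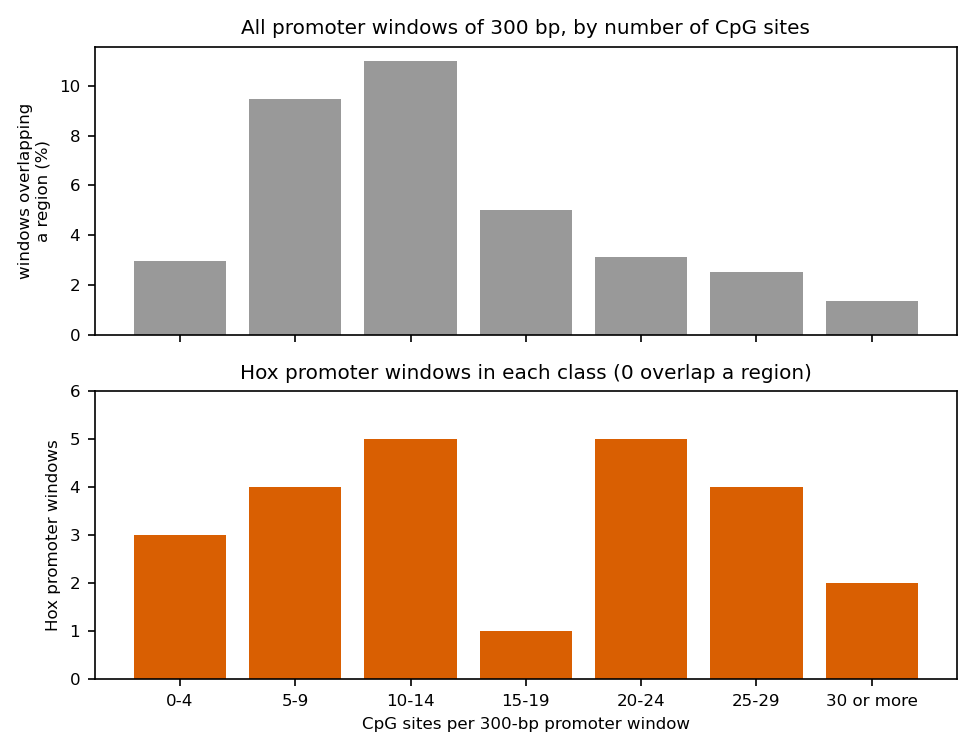
Upper panel: percent of all 300-bp promoter windows that overlap an enriched region, by the number of CpG sites in the window. Lower panel: number of Hox promoter windows in each class, of which 11 hold 20 or more CpG sites, where a region overlaps 2.21% of all windows.

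Few non-coding genes of the clusters held a region. Of 25 long non-coding RNA genes that overlap a span, 4 held a region, against 48% of such genes in the genome. They were Hoxb5os, Hoxb3os, Hotair and Gm30528, and the region of Gm30528 (chr15:103060046-103060432, height 14 in untreated replicate 1) lay in the flank beyond Hoxc4. None of the 6 microRNA genes held a region, and 8.55% of 1228 microRNA genes in the genome did, so a count of 0 of 6 is near the background. These were Mir196b, Mir196a-1, Mir10a, Mir196a-2, Mir615 and Mir10b, and their distances to a region ran from 3797 bp for Mir615 to 44383 bp for Mir10b. Strand is not recorded in the regions, so a region in an antisense gene and one in the Hox gene it overlaps cannot be told apart.

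Flank regions had a median of the mean heights of 12, against 13 in the clusters, with or without Hoxa. Of flank regions, 31.2% were called in 3 or more libraries, against 53.3% in the clusters and 40% without Hoxa. In the genome this share was 55.2%, so that of the clusters was near it. The highest flank region was chr2:74800372-74800788 beyond the anterior end of Hoxd, 35230 bp from Hoxd1 and nearest to Mtx2, which encodes a mitochondrial import protein. It had heights of 19, 22 and 18 in the untreated libraries and 26 and 19 in KCl replicates 1 and 2. Its mean of 20.8 was above that of each region in the Hoxb, Hoxc and Hoxd clusters, of which the highest was 17.5. The other named Hoxd flank regions were chr2:74787041-74787359, at 12 in untreated replicate 2 and 11 in KCl replicate 1, and chr2:74779281-74779515, at 10 in untreated replicate 2. No region lay in the posterior flank of Hoxd.

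Beyond Hoxa13, chr6:52281283-52281757 had heights of 22 in untreated replicate 3 and 14 in KCl replicate 2, 13680 bp from the non-coding RNA gene Hottip. Further out, chr6:52308101-52308397 in Evx1os had 17 and 10 in untreated replicates 1 and 3 and 12 in KCl replicate 1. Between them, chr6:52286508-52286743 had 10 and 15 in untreated replicates 1 and 3. Evx1os is the antisense partner of Evx1, the homeobox gene at the posterior end of the cluster. The posterior flank of Hoxb is occupied by Ttll6, a tubulin-modifying enzyme gene, whose region chr11:96145207-96145589 had heights of 22, 19 and 9 in the untreated libraries and 18 in KCl replicate 1. Another region of Ttll6, chr11:96154852-96155229, had 13 and 10 in untreated replicates 2 and 3, and chr11:96407734-96407984, beyond Hoxb1, had 13 in KCl replicate 1. Beyond Hoxc13, chr15:102888991-102889333 had 13 and 15 in untreated replicates 1 and 2 and 13 in KCl replicate 1.

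How much of the clusters was covered by called intervals was then compared with the flanks within each library. The 4 clusters were covered over 0.923%, 0.604% and 0.827% of their length in the untreated libraries and 0.861%, 0.517% and 0.199% in the KCl libraries. The flanks were covered over 0.55%, 0.495% and 0.609% in the untreated and 0.513%, 0.211% and 0% in the KCl libraries. The clusters were higher in 6 of 6 libraries, by 0.259 ± 0.101 percentage points (SD, n = 6, two-sided exact permutation test of within-library differences, p = 0.0312, the smallest that 6 libraries can give). Against the genome, at 0.934% ± 0.297 (SD, n = 6), the clusters were lower in 6 of 6 libraries, by 0.278 ± 0.176 percentage points (exact permutation p = 0.0312). These p-values, and those of the next comparisons with flanks or genome, weigh the spread between libraries that read the same stretches. They do not measure how the clusters stand among other stretches of the genome.

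The excess over the flanks rested on the Hoxa stretch and on the width of the flanks. The Hoxa cluster alone was covered over 2.05%, 2% and 2% in the untreated and 2.01%, 1.73% and 0.928% in the KCl libraries, above its flanks in 6 of 6 libraries by 1.36 ± 0.513 percentage points (exact permutation p = 0.0312, adjusted over the 4 clusters 0.125). Without Hoxa and its flanks, the other clusters differed from their flanks by -0.0393 ± 0.206 percentage points (SD, n = 6, exact permutation p = 0.938), and were below the genome in 6 of 6 libraries by 0.587 ± 0.209 points (exact permutation p = 0.0312). With 100-kb flanks, the 4 clusters together differed from their flanks by -0.143 percentage points (exact permutation p = 0.0625).

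With 50-kb flanks, no cluster differed from its own flanks at an adjusted p under 0.05, Hoxa included. A single cluster at the smallest exact permutation p, 0.0312, is adjusted to 0.125, as Hoxa was. No cluster could therefore pass alone, whatever its difference. Hoxb was covered over 0.411% ± 0.334 and its flanks over 0.571% ± 0.385 (SD, n = 6), a difference of -0.16 ± 0.227 percentage points (exact permutation p = 0.25, adjusted 0.5). Hoxc was covered over 0.321% ± 0.278 and its flanks over 0.218% ± 0.268, a difference of 0.103 ± 0.247 points (exact permutation p = 0.5, adjusted 0.562). Hoxd was covered over 0.263% ± 0.137 and its flanks over 0.37% ± 0.326, a difference of -0.107 ± 0.295 points (exact permutation p = 0.562, adjusted 0.562). The Hoxb, Hoxc and Hoxd differences were smaller than their spread between libraries, which does not show that cluster and flank were alike. Flank width changed the outcome: with 100-kb flanks Hoxb differed by -0.886 and Hoxd by -0.206 points (adjusted exact permutation p = 0.0417 each), and with 20-kb flanks by 0.411 and 0.165 points (adjusted exact permutation p = 0.125 and 0.188). The adjusted value with 100-kb flanks could pass only because Hoxa, Hoxb and Hoxd were all at the smallest p that the test gives.

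**Figure D3:**
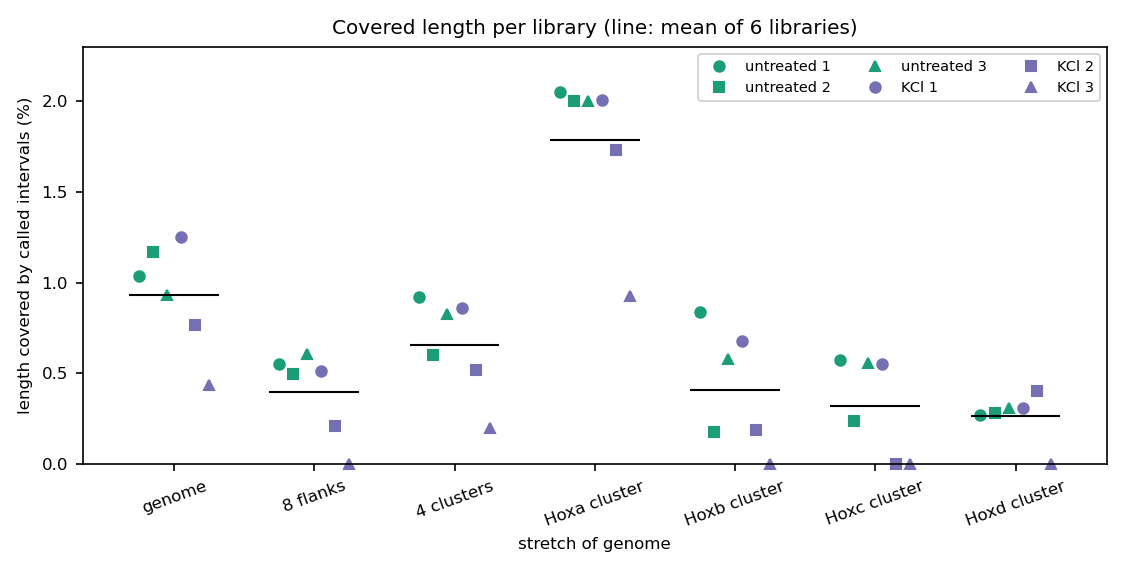
Percent of length covered by called intervals in each of the 6 libraries (points, untreated green, KCl purple) with their mean (line), for the genome, the 8 flanks, the 4 clusters together and each cluster. The Hoxa cluster lies above the genome in each library and the other 3 clusters lie below it.

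Coverage was lowest just outside the clusters. In the first 20 kb on either side of the 4 clusters, 1 region was found in 160 kb, and coverage was 0% in 5 libraries and 0.147% in untreated replicate 2. From 20 to 50 kb, mean coverage was 0.644% ± 0.391, from 50 to 100 kb it was 1.2% ± 0.484, and from 100 to 200 kb it was 1.19% ± 0.47 (SD, n = 6). The first regions called in all 6 libraries outside the spans came beyond 50 kb, with 5 of 28 regions from 50 to 100 kb and 8 of 61 from 100 to 200 kb. These distance classes were chosen after the values with narrower and wider flanks were seen, and no test was made on them.

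**Figure D4:**
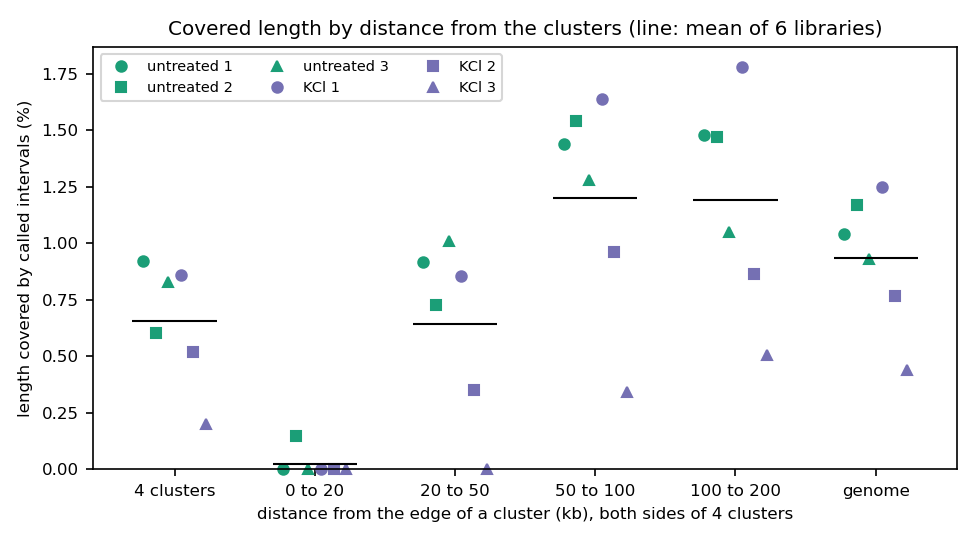
Percent of length covered by called intervals in each library (points) and on average (line) inside the 4 clusters, at increasing distance in kb from their edges on both sides, and in the genome. Between 0 and 20 kb, 5 of the 6 libraries are at 0.

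The study's own contrast was KCl against untreated. Of the 31 regions, 21 were called in more untreated than KCl libraries, or 67.7%, against 48.4% of all regions. In more KCl than untreated libraries, 4 of the 31 were called, against 21129 of the 133337 regions of the genome. KCl replicate 3 called 3 of the 31 regions, against 25.7% of all regions, and it had the fewest intervals of any library, 34834, where the others had 60949 to 93470. Coverage of the 4 clusters was 0.785% ± 0.164 in the untreated and 0.526% ± 0.331 in the KCl libraries (SD, n = 3 each), a difference of -0.259 percentage points (two-sided exact permutation p = 0.3). In the flanks it was 0.551% ± 0.0566 and 0.242% ± 0.258, a difference of -0.31 points (exact permutation p = 0.2), and in the genome 1.05% ± 0.12 and 0.819% ± 0.408, a difference of -0.23 points (exact permutation p = 0.5). With 3 against 3 libraries this test cannot go below 0.1. Without KCl replicate 3 the differences were -0.0951 points in the clusters and -0.189 in the flanks, and without KCl replicate 1 that in the clusters was -0.426.

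Region by region, heights could be compared where all 6 libraries had a call. By limma, 0 of 20537 such regions in the genome, or 0%, differed between KCl and untreated at an adjusted p under 0.05. At an unadjusted p under 0.05, 231 had lower heights with KCl, or 1.12%, and 0 had higher ones. This fit did not centre the libraries, and 90.6% of all tested regions had a change below 0. With each library centred on its median, 405 were higher and 342 lower at that limit, so the imbalance depended on library level. The 3 Hox regions that could be tested are neighbours in the Hoxa stretch. Their log2 changes were -0.68 ± 0.36 for chr6:52220420-52221009, -0.61 ± 0.36 for chr6:52222461-52223128 and -0.56 ± 0.36 for chr6:52223130-52223922 (SE), with limma's adjusted p at 0.932 for each and unadjusted p at 0.0593, 0.0923 and 0.118.

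The whole genome leaned the same way, with a median log2 change of -0.247. Relative to that median, the changes of the 3 Hox regions were -0.43, -0.37 and -0.31, in the same order. Single libraries moved these values. Leaving out each library in turn gave -0.55 to -0.32 for the first, -0.57 (without KCl replicate 1) to -0.14 (without untreated replicate 1) for the second, and -0.62 (without KCl replicate 1) to -0.11 (without KCl replicate 3) for the third. No region of the Hox clusters was called as changed with KCl. The other 28 regions had no height in at least 1 library and could not be tested.

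The genes that act with or on the Hox clusters were read from lists in the same way. Of 9 genes of Hox cofactors, which bind DNA beside Hox proteins, 1 had a region at an end and 7 in the body. Of 31 Polycomb genes, which keep Hox genes silent, 6 had one at an end and 26 in the body. Among 9 trithorax and H3K27 demethylase genes, which oppose Polycomb, these counts were 4 and 8. Among 15 regulators of Hox transcription, such as retinoic acid receptors and enzymes, they were 4 and 11. Among 13 ParaHox and related homeobox genes, the closest kin of the Hox genes, they were 5 and 5. At gene ends, against 26% of all genes, the shares were 44.4% for the trithorax list, 38.5% for ParaHox and 26.7% for the regulators. They were 19.4% for Polycomb genes and 11.1% for cofactors. In bodies, the ParaHox list was below 63.1%, at 38.5%. The other 4 lists were above it, from 73.3% for the regulators to 88.9% for the trithorax list. Gene length was not matched in these shares.

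By limma, no region of these lists was called in either direction between KCl and untreated. Hox cofactors had 14 tested regions, of which 7 were above and 7 below the genome's median change, with a list median of 0 and 1 region at an unadjusted p under 0.05. Polycomb genes had 24, of which 18 were below the genome's median change, with a list median of -0.07. The regulators of Hox transcription had 6, with a median of -0.02, the trithorax list had 6, with -0.03, and the ParaHox list had 1, at 0.17. None of the regions of these last 4 lists reached an unadjusted p under 0.05.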

How the data were processed

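MeDIP-seq was done on 3 untreated and 3 KCl libraries by a service company, per the labels' protocols. The submitters' processing notes name BWA, SICER and mm10, while versions, caller settings, read filters and any scaling between libraries were not given in the sources used. The authors deposited, per the file headers, 1 track of called intervals with a summit and a height (a pileup signal in whole numbers, recorded here as other) per library, and 1 track of active regions. Of the 133337 active regions, 133311 were exactly the merged intervals of the 6 libraries. The 6 libraries had 34834 to 93470 intervals, of median height 14 to 16. Read totals are not given, so depth is unknown and no counting interval was computed. A missing call is not a measured 0. Every per-sample column was matched to a sample (0 unmatched).

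The members, lists and tests were chosen with earlier results of these data known. Genes, start sites and promoter sequences were read from RefSeq tables (GRCm38.p6) by symbol, and all 39 Hox genes and all list genes matched by name. The tables hold gene ends without exons, so exons, introns and UTRs were not assigned. The genome spans the first to the last region of chromosomes 1 to 19 and X. A region counted for a gene on any overlap of the body, or within 1 kb of an end. Named were each Hox gene with a region, regions of the spans outside Hox genes called in at least 3 libraries, the 3 highest regions of each cluster's flanks (both for Hoxc), tested regions, and the 4 list members with the highest regions. Some genes that this rule takes in are not reported here.

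Coverage was compared by exact permutation over libraries (Python 3.11.15, numpy 2.4.6, pandas 2.3.3, scipy 1.17.1), and heights by limma 3.58.1 (R 4.3.3) on log2(height + 1), with regions called in all 6 libraries, a mean height of 18.7 or more (the 25th percentile), an intensity trend and Benjamini-Hochberg adjustment. Scripts were tested on simulated data. Libraries with the same replicate number had weakly correlated deviations from their group means (0.11, 0.11 and 0.15), all over the limit of 0.1. A fit blocked by replicate number was therefore run beside the main one. Between different numbers the correlations were -0.09 to -0.02. Deviations from a group mean sum to 0, so positive values for the same numbers force negative ones elsewhere, which are no separate evidence of pairing. The pairing thus rests on these weak correlations alone, and the labels do not state a shared batch. Alternatives were flank width, height and library minimums, intervals in place of coverage, pseudocount, filter, median centring, the block and leaving out each library.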

Additional observations from a re-analysis of the deposited data

How the results depend on the processing

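Leaving out each library in turn kept the direction of the comparisons except Hoxd against its flanks, which ran from -0.156 to 0.00237 percentage points (0.00237 without untreated replicate 2). The 4 clusters against their flanks ran from 0.236 to 0.289 and against the genome from -0.313 to -0.22, each at an exact permutation p of 0.0625, the smallest that 5 libraries can give. Flanks of 20 kb gave 0.411 for Hoxb and 0.165 for Hoxd, the opposite direction, and 0.625 regions per 100 kb of flank. Flanks of 100 kb gave 5.5 regions per 100 kb, -0.143 for the 4 clusters together, and 0.66 for Hoxa, -0.886 for Hoxb and -0.206 for Hoxd, the last 3 each with an adjusted exact permutation p of 0.0417. Intervals of height 12 or more gave 0.0246 for Hoxb (exact permutation p = 1). Counting intervals per 100 kb gave 0.352 for the 4 clusters (exact permutation p = 0.125). Leaving out Hoxa, an alternative chosen after seeing the data, gave -0.0393. The cause of these shifts was not tested.

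Hox genes with a region at an end numbered 3 with regions of at least 3 libraries, 1 with all 6, 3 within 500 bp and 13 within 5 kb, and those with one in the body numbered 3 and 1. Region density went to 1.63 and 0.61 per 100 kb in the clusters and to 1.25 and 0 in the flanks, since fewer regions qualify. The replicate block left the KCl differences at -0.259 in the clusters and -0.31 in the flanks (exact permutation p = 0.25 each, the smallest 3 pairs can give), and changed no call. By limma, 0 regions were called in all 12 alternatives, the replicate block included. Without KCl replicate 1, 4325 regions were lower by limma at an unadjusted p under 0.05, with a smallest adjusted p of 0.0842. That fit was not centred either, its median log2 change was -0.46, and its KCl group held the libraries with the fewest intervals. With the depth unknown, a region missing in a library may be absent or under the caller's limit.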

Other observations

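The genes named here were picked from each list for the highest mean heights in these same libraries, so their heights do not describe the lists. The lists also held unequal numbers of regions: 68 for Hox cofactors, 118 for Polycomb genes, 68 for the regulators, 33 for the trithorax list and 15 for the ParaHox list. Meis1 and Meis2, cofactors that bind DNA together with Hox proteins, held regions with mean heights of 61.8 and 51.8 over 6 libraries, and Pbx3, of another cofactor family, held one of 33. The Meis1 region, picked as the highest of the 68 cofactor regions, read 68, 79 and 51 in the untreated and 83, 49 and 41 in the KCl libraries. It was above the highest summit of the Hoxa stretch in each library, but that choice favours such an outcome. Among Polycomb genes, Jarid2 held a region of mean height 100.3, Kdm2b 48.5, Cbx7 48 and Cbx6 43. Among the regulators of Hox transcription, the retinoid receptor genes Rxrg and Rxrb held regions of 63 and 27, and the retinoic acid enzyme genes Cyp26b1 and Aldh1a2 held 40.8 and 26.8. Kdm6b, a demethylase of the Polycomb mark, held one of 43.2, Kmt2b 33.5, Kmt2a 25.2 and Ash2l 20. The highest regions of the ParaHox and related genes had mean heights of 22.7 in Meox1, 18.3 in Gbx1, 14.7 in Cdx1 (called in 3 libraries) and 12.2 in Meox2 (called in 4).

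Lists of cell type markers were read for the presence of a region, which says nothing of their expression. A region in the body was found for 7 of 7 neuron, 4 of 4 astrocyte, 4 of 5 oligodendrocyte lineage, 3 of 4 microglia and 3 of 4 endothelial and mesenchymal markers. At a gene end the counts were 3, 1, 2, 0 and 1, in the same order. Over all protein-coding genes the shares were 63.1% in the body and 26% at an end, and with 4 to 7 genes a list nothing is read from these counts.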
